A study of Mus musculus with 16 samples.

Results

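Genes of protein uptake by the suckling enterocyte, and the transcription factor gene Maf, were followed through lists of histone mark differences between jejunal epithelial cells with and without the corepressor NCoR1. The 5 genes were Cubn, Amn, Lrp2, Dab2 and Maf. A region belonged to one of them when its summit lay within 50 kb of a transcription start of that gene and no start of another protein-coding gene was nearer. By this rule 9 of 23511 regions belonged to the 5 genes, and each gene had at least 1.

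Cubilin and megalin are very large endocytic receptors, encoded by Cubn and Lrp2. Cubilin has no membrane anchor of its own and reaches the apical surface with amnionless, the product of Amn. Dab2 is the adaptor that links such receptors to clathrin. In suckling rodents these proteins load milk proteins into lysosome-rich enterocytes, best known from the ileum, where the proteins are degraded inside the cell. Maf encodes c-MAF, a leucine zipper factor that binds Maf recognition elements and has been described in mouse enterocytes as a regulator of nutrient uptake genes.

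The mice were C57BL/6 neonates at postnatal day 12, and the cells were freshly isolated epithelial cells of the jejunum. Wild-type mice (WT, F/FUN in the labels) were compared with mice whose intestine lacked NCoR1 (KO, ΔIECUN). The labels name neither the promoter that drove the deletion nor how many animals went into a library. The lists place regions on a contig named for human UGT1A, and the study is known to have used mice of both genotypes that carry the human UGT1 locus. Each of 6 histone marks was measured by ChIP-seq in 1 WT and 1 KO library, of 23925163 to 32444815 tags after removal of duplicates, so no difference here could be set against replicate error. The 10 lists used hold the places where the library of one genotype exceeded that of the other, called WT-higher or KO-higher below. H3K27ac, H3K9ac and H3K4me3 mark active promoters and enhancers, and H3K4me1 mainly enhancers. H3K9me3 and H3K27me3 mark repressed chromatin. For H3K4me1 and H3K27me3 the list deposited for KO repeats the WT-higher regions, so a gain in KO was not analysed here.

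The following sequences are those of 8 regions that carry the differences at the 5 genes, since the text returns to each of them. They are mm9 reference sequence of the plus strand, 5′ to 3′. The Dab2 sequence stops before the annotated UTR. Capitals mark matches, on either strand, to 5 motifs: TGCTGA from the Maf recognition element, TGANTCA of AP-1, AGGTCA of nuclear receptors, CAAAGTCCA of HNF4 and AGATAA of GATA factors. The Maf and AP-1 motifs can overlap. A sequence without capitals holds no match.
Lrp2 WT-higher H3K4me3, chr2:69423360-69423590: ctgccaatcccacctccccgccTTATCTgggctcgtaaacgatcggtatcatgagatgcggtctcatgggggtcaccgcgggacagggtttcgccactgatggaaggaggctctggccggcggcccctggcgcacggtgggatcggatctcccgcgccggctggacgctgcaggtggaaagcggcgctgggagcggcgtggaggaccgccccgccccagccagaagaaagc
Lrp2 WT-higher H3K9ac, chr2:69422799-69422936: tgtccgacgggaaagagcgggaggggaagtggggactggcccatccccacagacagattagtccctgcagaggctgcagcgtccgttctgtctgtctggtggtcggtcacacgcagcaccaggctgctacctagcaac
Cubn KO-higher H3K9ac, chr2:13404960-13405129: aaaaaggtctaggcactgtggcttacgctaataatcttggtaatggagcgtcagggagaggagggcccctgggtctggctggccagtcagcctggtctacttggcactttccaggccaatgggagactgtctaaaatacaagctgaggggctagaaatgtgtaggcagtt
Amn WT-higher H3K27ac, chr12:112509405-112509592: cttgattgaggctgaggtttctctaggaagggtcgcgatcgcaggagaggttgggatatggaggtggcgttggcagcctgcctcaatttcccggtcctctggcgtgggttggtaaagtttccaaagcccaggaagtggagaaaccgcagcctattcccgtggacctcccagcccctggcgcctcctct
Dab2 KO-higher H3K27ac, chr15:6336376-6336597: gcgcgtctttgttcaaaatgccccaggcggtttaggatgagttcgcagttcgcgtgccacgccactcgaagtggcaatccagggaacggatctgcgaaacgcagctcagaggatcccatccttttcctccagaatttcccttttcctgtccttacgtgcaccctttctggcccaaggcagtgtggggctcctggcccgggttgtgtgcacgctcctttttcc
Maf KO-higher H3K27ac, chr8:118222719-118222884: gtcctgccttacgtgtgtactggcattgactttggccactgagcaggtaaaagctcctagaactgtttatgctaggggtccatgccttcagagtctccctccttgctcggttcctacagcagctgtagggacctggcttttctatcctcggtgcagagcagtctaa
Maf KO-higher H3K9ac, chr8:118223464-118223615: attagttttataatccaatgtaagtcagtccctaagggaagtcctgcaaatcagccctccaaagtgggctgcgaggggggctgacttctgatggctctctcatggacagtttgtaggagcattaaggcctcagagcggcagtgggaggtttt
Maf WT-higher H3K27ac, chr8:118241605-118241761: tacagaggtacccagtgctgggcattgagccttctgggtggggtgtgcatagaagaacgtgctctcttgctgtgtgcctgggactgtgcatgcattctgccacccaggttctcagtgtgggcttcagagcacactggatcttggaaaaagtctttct

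The 9 regions split almost evenly between the directions, with 5 WT-higher and 4 KO-higher. Folds are the authors' values, the pileup of tags at the summit over the local background in the library of the other genotype. They ran from 1.51 to 5.21 in the WT direction (median 2.31) and from 1.64 to 4.55 in the KO direction (median 2.93). Where tags are set against a second value below, that value is this local background, not a count of tags at the summit. Lrp2 and Amn had WT-higher regions alone, Cubn and Dab2 had KO-higher regions alone, and Maf had both. Acetylation, as H3K27ac or H3K9ac, was WT-higher at 3 of the 5 genes, beside 12.8% of 21693 protein-coding genes, and KO-higher at 3, beside 12.3%. The genes were chosen with results on these lists known, so these counts are a description. No region of H3K9me3 or H3K27me3 and no KO-higher H3K4me3 region lay at any of the 5 genes. In all genes these lists are short too: WT-higher H3K9me3 reached 1.09%, WT-higher H3K27me3 0.867%, KO-higher H3K9me3 2.28% and KO-higher H3K4me3 0.3% of genes. In bulk chromatin, a change in the share of a cell type and a change of the mark in each cell cannot be told apart.

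**Figure D1:**
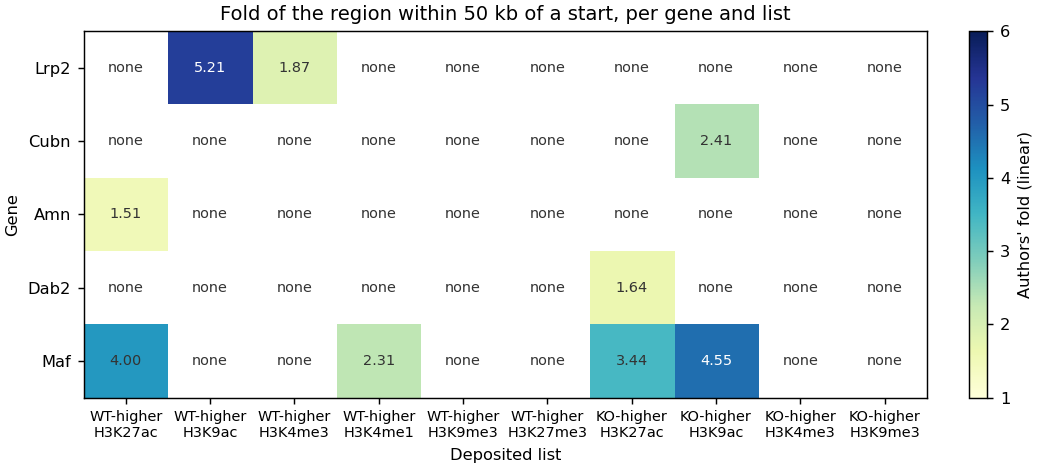
Grid of the 5 genes (rows) against the 10 lists (columns), with the authors' fold of the region within 50 kb of a start as colour (linear scale) and number. Filled cells are few, the highest is WT-higher H3K9ac at Lrp2 (5.21), and Maf is the one row with cells in both directions.

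Lrp2, on chromosome 2 (69262397 to 69424122, minus strand, 161.7 kb), was the receptor gene with WT-higher marks. WT-higher H3K4me3 reached 15.3% of all genes and WT-higher H3K9ac 7.63%, and Lrp2 was the 1 gene of the 5 in each list. The H3K4me3 region lay in an intron next to the promoter, with its summit 630 bp downstream of the nearest start. It had 97 tags at the summit in WT against a local background of 51.3 in KO, a fold of 1.87 (-log10 q 4.41). The H3K9ac region lay 423 bp further into the intron, its summit 1226 bp from the start. Its pileup was 22 tags in WT against 3.42 in KO, a fold of 5.21 (-log10 q 6.595), and 92.1% of the WT-higher H3K9ac regions had a lower fold. The H3K4me3 difference thus sat on a high pileup in WT and a high local background in KO, while the larger H3K9ac fold rested on few tags. Neither region shared bases with the other. The GATA motif, read on the minus strand and in capitals in the H3K4me3 sequence, occurred in no other of the 9 regions. It was present within 100 bases of the summit in 2.22% of WT-higher H3K4me3 regions.

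Cubn, the partner receptor gene on the same chromosome (13197965 to 13413551, minus strand, 215.6 kb), differed in the other direction. Its single region was KO-higher H3K9ac in an intron, 8464 bp downstream of the nearest start. The KO pileup was 49.7 tags and the WT background 20, a fold of 2.41 (-log10 q 3.999). The region was in the lower part of its list, with 30.3% of KO-higher H3K9ac regions below its fold. KO-higher H3K9ac reached 4.02% of all genes and 2 of the 5, Cubn and Maf. No region of any list lay within 1 kb of a Cubn start. Amn, whose protein carries cubilin to the surface, lies on chromosome 12 (112509322 to 112514637, plus strand, 5.3 kb). It had 1 WT-higher H3K27ac region, in an intron with its summit 219 bp downstream of the start. The pileup was 94.3 tags in WT against 62.0 in KO, and the fold of 1.51 was among the lowest of the list, with 2.51% of regions below it. Its -log10 q of 1.33 lay just inside the authors' limit of 1.3. WT-higher H3K27ac was found at 7.58% of all genes and at 2 of the 5, Amn and Maf.

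A stronger pair of differences lay upstream of the Amn start, 19745 bp away at the H3K27ac summit and inside an intron of the neighbouring gene Traf3. WT-higher H3K27ac had 26.8 tags in WT against 3.66 in KO there, a fold of 5.96 (-log10 q 9.50), which ranked 49 of 2510. WT-higher H3K4me1 covered the same bases with 35 tags against 6.10, a fold of 5.07 (-log10 q 10.5). Both belong to Traf3 by the rule, because a transcript of Traf3 starts 2883 bp from the H3K27ac summit. The authors' annotation gives the H3K4me1 region to Amn, and so does a rule that counts only the 5′ end of each gene. Which of the genes the region serves was not tested. Its sequence is shown because its fold was above those of the 9 regions of the 5 genes. The sequence holds the Maf motif TGCTGA in capitals, which 15.8% of WT-higher H3K27ac regions hold within 100 bases of the summit.
Traf3 intron WT-higher H3K27ac, chr12:112489545-112489705: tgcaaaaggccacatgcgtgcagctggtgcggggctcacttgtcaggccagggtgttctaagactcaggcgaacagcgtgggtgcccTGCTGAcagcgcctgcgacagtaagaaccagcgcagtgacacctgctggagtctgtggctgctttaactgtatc

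Dab2, the adaptor gene on chromosome 15 (6249788 to 6390712, plus strand, 140.9 kb), had 1 region within 50 kb, KO-higher H3K27ac at an internal promoter. Its summit lay 39 bp upstream of a transcript start inside the gene, at position 6336598, and the region ran into the UTR annotated there. The KO pileup was 98 tags and the WT background 59.5, a fold of 1.64 (-log10 q 2.79), and 6.68% of the KO-higher H3K27ac regions had a lower fold. KO-higher H3K27ac reached 11.6% of all genes and 2 of the 5, Dab2 and Maf. The region belongs to Dab2 only through those internal starts: with the 5′ ends of genes alone it was assigned to none of the 5. Beyond the limit, WT-higher H3K4me3 lay 102.7 kb upstream of Dab2 (19 tags in WT against 4.28 in KO, fold 3.79) and KO-higher H3K27ac 271.5 kb upstream (31 tags in KO against 9.92 in WT, fold 2.93).

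**Figure D2:**
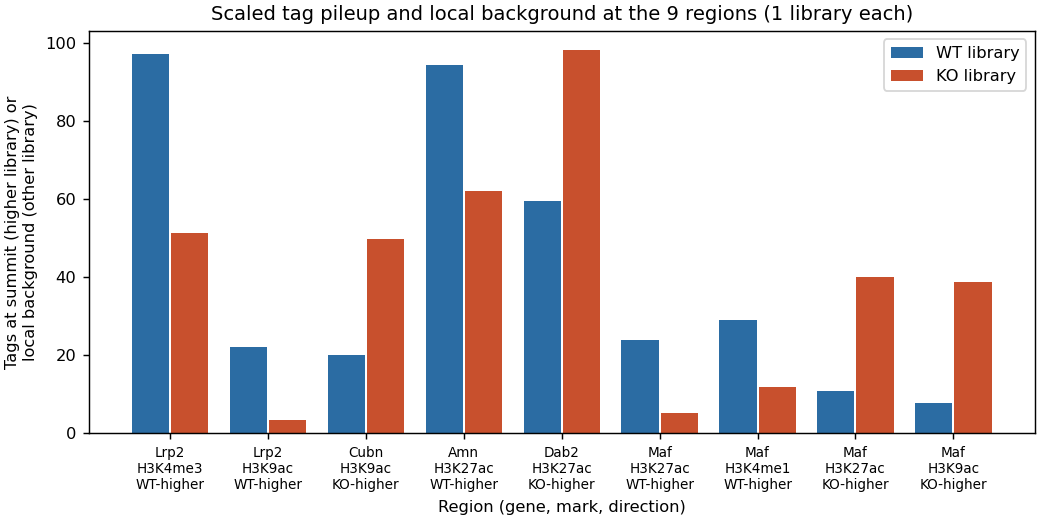
Bars give the scaled tag pileup at the summit in the library where the mark was higher, and the local background at the same place in the library of the other genotype, for each of the 9 regions (1 library per bar, no error bar possible). The Lrp2 H3K4me3, Amn and Dab2 regions have tall bars for both libraries (51.3 to 98 tags), while the lower bar is under 12 at Lrp2 H3K9ac and at the 4 Maf regions.

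Maf, on chromosome 8 (118206842 to 118231694, minus strand, 24.9 kb), had 4 of the 9 regions and the 1 case of acetylation in both directions, a state found at 1.31% of all genes. Inside its intron, KO-higher H3K9ac (38.8 tags in KO against 7.76 in WT, fold 4.55, -log10 q 10.05) lay 7455 bp downstream of the nearest start. KO-higher H3K27ac (40.0 tags against 10.9, fold 3.44, -log10 q 7.77) lay 8178 bp downstream. The regions were 579 bp apart and shared no bases. Both ranked high in their lists, with 86.0% and 80.5% of regions below them. On the other side of the gene, WT-higher H3K27ac lay 9953 bp upstream of the start, with 23.8 tags in WT against 5.20 in KO, a fold of 3.999 (-log10 q 4.86). WT-higher H3K4me1 was found 47.3 kb upstream, just inside the limit, with 29 tags against 11.96 and a fold of 2.31 (-log10 q 2.05). WT-higher H3K4me1 reached 7.61% of all genes and 1 of the 5. When starts of non-coding genes were allowed to compete, the intronic pair went to Gm15655, a non-coding transcript inside Maf on the opposite strand, and Maf kept its WT-higher regions. The both-direction call was lost there. It was also lost, with 0 WT-higher regions left at Maf, by gene body with 5 kb, at a -log10 q of at least 5 and at a fold of at least 4.

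Beyond the limit, 9 further regions had a Maf start as their nearest, at 146.2 to 288.0 kb. The wider reach was chosen after the data had been seen. Of these 9 regions, 7 were KO-higher H3K27ac and 2 WT-higher H3K4me1, with no WT-higher H3K27ac among them. KO-higher H3K27ac is also the longest list, with 7111 regions, beside 2510 of WT-higher H3K27ac and 2774 of WT-higher H3K4me1. The share of all genes with a region was not counted at this reach, so the split is a description. Downstream of the gene lay 4 of the KO-higher H3K27ac regions, with folds of 2.003, 2.54, 2.49 and 4.36 at 146.2, 170.4, 170.9 and 288.0 kb. Upstream lay 3, with folds of 3.76, 3.13 and 3.43 at 196.3, 272.8 and 273.5 kb. The last of these had 105 tags in KO against 29.9 in WT and a -log10 q of 21.4, the highest at any of the 5 genes. A WT-higher H3K4me1 region (61 tags against 28.2, fold 2.12) lay 1851 bp beyond it, and another (86 tags against 33.3, fold 2.54) lay 181.3 kb downstream of Maf, 10230 bp from the nearest KO-higher H3K27ac region. The distal sequence is shown because it had that highest -log10 q. It holds the Maf motif and the GATA motif, in capitals, which 18.2% and 4.33% of KO-higher H3K27ac regions hold within 100 bases of the summit.
Maf distal KO-higher H3K27ac, chr8:118505042-118505226: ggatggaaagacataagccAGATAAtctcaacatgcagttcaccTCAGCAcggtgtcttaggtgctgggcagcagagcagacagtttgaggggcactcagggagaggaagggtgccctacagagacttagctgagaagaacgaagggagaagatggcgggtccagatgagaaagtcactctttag

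**Figure D3:**
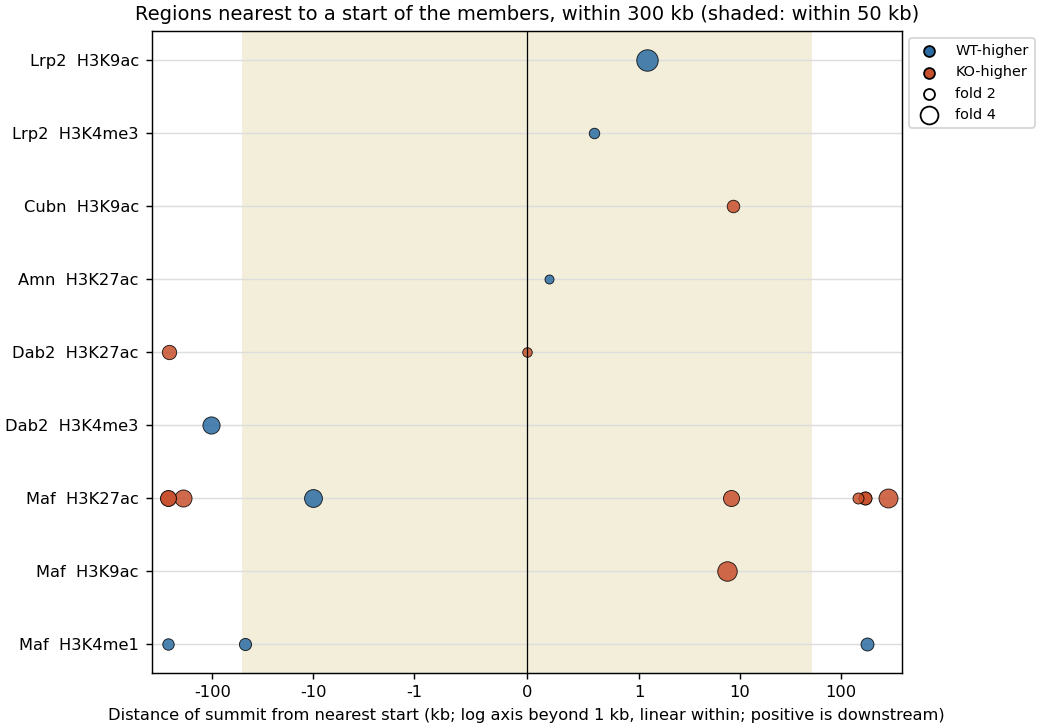
Distance of each summit from the nearest start of the gene, in kb (log axis beyond 1 kb, positive downstream), for the 9 regions within 50 kb (shaded) and the 11 regions out to 300 kb. Point area grows with the authors' fold, blue is WT-higher and red KO-higher, and the KO-higher H3K27ac regions of Maf lie on both sides of the gene beyond the limit.

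In their lists, the acetylation regions of Maf and the H3K9ac region of Lrp2 ranked high by fold. The H3K4me1 region of Maf, at 22.9%, and the regions next to a start ranked lower. So did the H3K9ac region of Cubn, at 30.3%, although it lay 8464 bp from a start. At the 3 regions within 1 kb of a start (Lrp2 H3K4me3, Amn and Dab2), 34.4%, 2.51% and 6.68% of the list had a lower fold. GC content was 68.0% and 62.3% in the Lrp2 H3K4me3 and H3K9ac sequences, beside list medians of 64.6% and 61.6%, and 59.0% at Amn, beside 59.5% for WT-higher H3K27ac. The Maf intron sequences had 52.4% (H3K27ac) and 50.0% (H3K9ac), beside 54.9% and 54.7%. The Cubn H3K9ac sequence had 52.4%, beside 54.7%. The WT-higher H3K27ac sequence of Maf had 53.5%, beside 59.5%. The Dab2 sequence, which leaves out the UTR part of the region, had 57.2%, beside 54.9% for whole regions of its list. Of the 9 regions, 1 held any of the 5 motifs within 100 bases of the summit. In the lists with a member, 22.7% (WT-higher H3K4me3) to 39.9% (WT-higher H3K4me1) of regions held at least 1. In RefSeq promoters of GRCm38.p6, which cover 4 of the 5 genes with 5 entries, TGCTGA was found in 3 (1 each of Cubn, Lrp2 and Dab2), beside 19.5% of all promoters, and AGATAA in 1 of Dab2, beside 11.2%. The other 3 motifs had no match in those 5 windows.

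**Figure D4:**
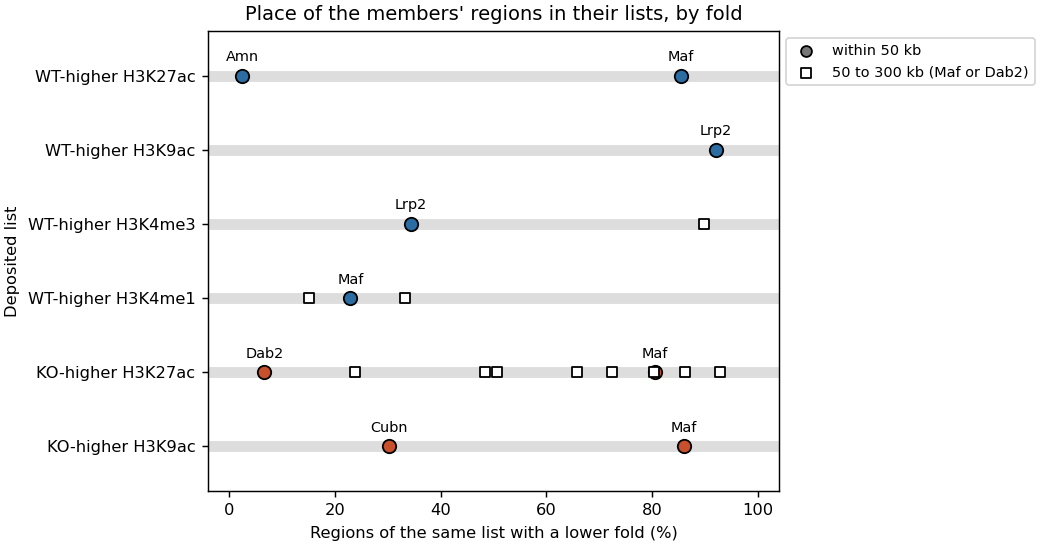
Place of each region in its own list, as the percent of regions with a lower fold (circles: within 50 kb, labelled by gene; open squares: 50 to 300 kb from Maf or Dab2). Amn and Dab2 sit at 2.51% and 6.68%, Lrp2 H3K9ac at 92.1%, and the acetylation regions of Maf within 50 kb at 80.5 to 86.0%.

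RNA was available only through the authors' deposited table, which lists the authors' nearest gene of each WT-higher H3K4me1 region. By the authors' deposited table, Amn RNA differed by -0.02 (KO over WT, log2 scale, FDR 1.0) and Maf RNA by -0.06 (FDR 1.0), so neither passed the authors' test. The other members are not in it and their RNA was not analysed here. At an FDR under 0.05, the authors' deposited table has 4.97% of its 1549 genes up in KO and 9.62% down. The per-library RNA values that accompany the test come from libraries outside these samples and were not used. The fold changes and FDRs are labelled only as KO against WT intestine. Whether the gut segment, cells and age match those of the ChIP libraries was not examined.

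The genes with the most similar pattern over the 10 lists were named by rule, first by the share of lists in common and then by fold. Among 8370 other genes with a region, 10 had regions in exactly the 4 lists of Maf, and the nearest in fold were Dopey2, Liph and Gramd1b. Their KO-higher H3K27ac folds were 2.11, 3.30 and 4.80, and their KO-higher H3K9ac folds 3.62, 6.56 and 7.07. Exactly the 2 lists of Lrp2 were shared by 257 genes, led by Parp1, Syt9 and Plch1, with WT-higher H3K9ac folds of 4.99, 5.26 and 5.66. The single lists of Cubn, Amn and Dab2 were shared by 104, 539 and 1210 genes. By fold the nearest were 2610528J11Rik, Opa3 and Ppp1r9b for Cubn. They were Stambpl1, Irf7 and B230208H17Rik for Amn, and Dad1, Atg2a and Phb2 for Dab2.

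Of 12 other receptors, ligands and adaptors of uptake, acetylation was WT-higher at 5 (41.7%, beside 12.8% of all genes) and KO-higher at 4 (33.3%, beside 12.3%). Shares of all genes, throughout, are over all protein-coding genes and were not matched for expression in these cells. Whether a higher share is particular to a gene list was therefore not tested. WT-higher H3K27ac lay at Pigr (fold 3.20), the receptor that carries immunoglobulin A across epithelium. Gipc1, which binds the tail of megalin, had WT-higher H3K27me3 (2.94, on 19.6 tags, -log10 q 1.77), and was also in the WT-higher H3K27ac and H3K4me3 lists. KO-higher H3K27ac lay at Numb (3.83), an endocytic adaptor that also had WT-higher H3K4me1 (2.56). KO-higher H3K27ac also lay at Fcgrt (1.76), which encodes the receptor for immunoglobulin G from milk, and at Lrp1 (1.41), a relative of megalin. Lrp1 was also in the WT-higher H3K4me3 list. Of 23 genes of clathrin coats and endosomes, 7 had KO-higher acetylation (30.4%, beside 12.3% of all genes). WT-higher acetylation lay at 3 (13%), near the 12.8% of all genes. KO-higher examples were Picalm (H3K9ac 4.60), a clathrin assembly protein, the motor gene Myo6 (H3K27ac 4.52) and the endosomal chloride transporter gene Clcn5 (H3K27ac 4.36). Their pileups were low, at 14.45, 27 and 25 tags. Ocrl, an inositol phosphatase, had KO-higher H3K9me3 (7.21, on 19 tags) and WT-higher H3K4me3 (3.39, on 14 tags). The WT-higher ones were the endosome genes Eea1 (H3K9ac 3.69) and Rab11a (H3K27ac 3.598) and a further site of Myo6 (H3K9ac 2.96). Their pileups were 16, 27.78 and 18 tags. In the authors' deposited table Rab11a RNA did not pass (0.07, FDR 0.871).

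Of 25 lysosomal genes, 7 had KO-higher acetylation (28%, beside 12.3% of all genes) and 1, Ctsh, had WT-higher acetylation (4.0%, beside 12.8%). WT-higher H3K4me3 lay at 7 (28%, beside 15.3%) and WT-higher H3K4me1 at 4 (16%, beside 7.61%), so in each list most lysosomal genes had no region. For H3K4me1 no list of gains was analysed, so its direction could not be compared. KO-higher examples were the lysosomal lipase gene Lipa (H3K9ac 4.32) and the protease genes Ctsb (H3K9ac 4.16) and Ctsl (H3K27ac 4.09). WT-higher H3K4me1 lay at Ctsl (4.29), at the protease gene Ctsh (4.17) and at Npc2 (3.64), a cholesterol carrier of the lysosome, and WT-higher H3K4me3 at the protease gene Lgmn (3.01). In the authors' deposited table Ctsl was higher in KO (log2 fold change 0.42, FDR 0.000547) and Npc2 lower (-0.26, FDR 0.0444), while Neu1, a sialidase, did not pass (-0.02, FDR 1.0).

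Among 12 relatives and dimer partners of Maf, 6 had KO-higher acetylation (50.0%, beside 12.3% of all genes) and 2 WT-higher acetylation (16.7%, beside 12.8%). Nfe2l2, the partner of small Maf proteins in antioxidant responses, had the highest fold (KO-higher H3K9ac 6.65) and also WT-higher H3K4me1 (2.76). The H3K9ac fold rested on few tags (18.96 in KO), the H3K4me1 fold on 89 in WT. Bach1, a repressor that binds with small Maf proteins, had KO-higher H3K9ac (4.38) and WT-higher H3K27ac (2.72). Its relative Bach2 had KO-higher H3K27ac (3.123), but also WT-higher H3K4me3 at a distance of -308 bp from a start (2.48) and WT-higher H3K4me1 (2.52). The small Maf gene Mafk had KO-higher H3K9ac (2.96). WT-higher regions lay at Nrl (H3K9ac 2.86), a large Maf gene of the retina, and at Nfe2l3 (H3K4me3 2.66). In the authors' deposited table Nfe2l2 was higher in KO (log2 fold change 0.56, FDR 8.49e-07).

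**Figure D5:**
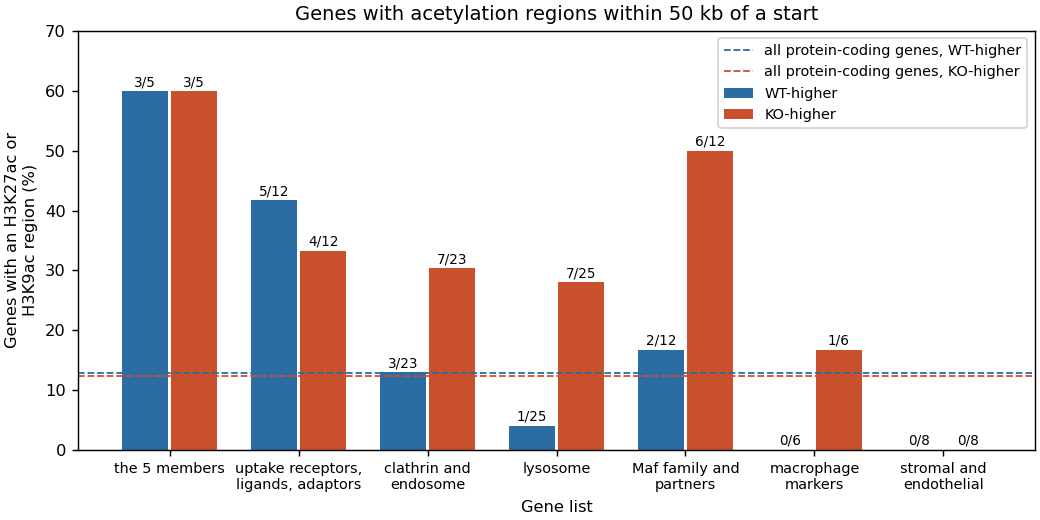
Percent of the genes of each list with an H3K27ac or H3K9ac region within 50 kb of a start, WT-higher in blue and KO-higher in red, with counts above the bars. Dashed lines are for all protein-coding genes (12.8% and 12.3%), not matched for expression. The lysosome, clathrin and Maf partner lists have more KO-higher than WT-higher genes (7 against 1, 7 against 3 and 6 against 2), the 5 genes have 3 of each.

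Maf and Dab2 are also active in macrophages and stromal cells. Of 6 macrophage marker genes, 1 had KO-higher acetylation (16.7%, beside 12.3% of all genes), Mrc1 (H3K27ac 4.59). WT-higher acetylation lay at 0 of the 6, beside 12.8% of all genes. Acetylation of either direction lay at 0 of 8 stromal and endothelial and 0 of 6 T and B cell markers. Lists this short can hold 0 at the shares of all genes. Col3a1, a stromal marker, had KO-higher H3K9me3 (6.85, on 18 tags). Of 7 epithelial markers, 6 had KO-higher acetylation (85.7%, beside 12.3% of all genes) and 0 WT-higher acetylation. Among the 6 were Krt20 (H3K9ac 4.91), Cdh1 (H3K9ac 3.67) and Vil1. Krt20 also had WT-higher H3K4me1 (2.75), and Hnf4a, another of the 6, WT-higher H3K4me3 (1.68). Vil1, the villin gene, also had KO-higher H3K4me3 and KO-higher H3K9me3, the latter 4572 bp upstream of its start with 196 tags in KO and a fold of 71.0. Vil1 was thus in every KO-higher list, of active and repressive marks alike. The inputs were not analysed, so a difference in DNA copies at Vil1 and a difference in marks cannot be told apart here. Krt20 RNA was higher in KO by the authors' deposited table (log2 fold change 1.10, FDR 4.53e-20). The lists hold differences between genotypes, so they do not check the labelled cell type, and a part of other cells in the values at Maf and Dab2 was not tested.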

How the data were processed

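The labels describe 16 samples: 12 ChIP libraries and 4 inputs, the inputs not analysed here. Sequencing ran for 50 cycles, per the labels' protocols. Build mm9 and the tools Bowtie2 2.2.9, HOMER 3.12, MACS2 2.1.1 and CASAVA 1.8.2 appear in the submitters' processing notes. The headers of the lists differ from this in giving MACS 2.0.10.20130419, and tags of 75 bp, which was not resolved. Per the file headers, a list sets 1 genotype against its counterpart as the control track (q under 0.05, 1 tag kept per position).

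Per the file headers, each region comes with 4 deposited values. Pileup is a coverage signal after the larger library was scaled down, fold is the ratio of pileup to local background, and the p-value and q-value are given as -log10. The background in the other library was computed as (pileup + 1) / fold - 1, and a Poisson p from it fell within 5% of the authors' -log10 p for 99.99% of 18018 regions with a whole-number pileup. It is the highest of several local averages, not the other library's own pileup. Of 12 deposited lists, 2 repeat another and were left out.

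The authors' log2 fold change and FDR (an adjusted p-value) of RNA come from 1 deposited table, and 12 per-library RNA columns in it were not used. The header states neither base nor sign, which were read as log2 of KO over WT from the usual HOMER naming. Of 77 genes positive past the FDR 64 had KO-higher H3K27ac, against 10 of 149 negative ones.

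Summits were joined to the nearest start of any transcript of a protein-coding gene (GENCODE models of mm9). Background counts left out chromosomes 18, Y and M, so 2 macrophage markers were not counted. Motif search and assignment were checked on simulated data. Python 3.11.15, pandas 2.3.3 and pysam 0.24.0 were used. With 1 library per group there was no test. The genes and gene lists were chosen with earlier results of these data known. Genes were named by rule: the 5 members, in every gene list the 4 highest folds of either direction, and 3 per member by pattern. Some genes that the rule names are not reported here. Others (Neu1, Traf3, Gm15655 and the regions beyond 50 kb) were chosen after their values were seen.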

Additional observations from a re-analysis of the deposited data

How the results depend on the processing

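There were 5 WT-higher and 4 KO-higher regions at the 5 genes. A stricter limit of 5 on -log10 q left 1 and 2, and a limit of 4 on the fold left 1 and 1. Under either limit, WT-higher and KO-higher acetylation each lay at 1 gene instead of 3. WT-higher regions numbered 3 by gene body with 5 kb, and 8 with the authors' gene for H3K4me1. KO-higher regions numbered 2 with the starts of all genes, since the Maf intron pair went to Gm15655. Out to 300 kb, an alternative chosen after seeing the data, there were 8 WT-higher and 12 KO-higher regions. Limits of 10 and 100 kb, and gene 5′ ends only (added after seeing the data), kept these 4 counts within 1.5 times, and a stricter overlap left the count of shared regions at 0. Of 85 recounts by gene and direction, 63 stayed within 1.5 times. Many of these 63 set 0 against 0, and a count of 0 could not change under the stricter limits or at 10 kb. A depth of 23925163 to 32444815 tags limits what a list can hold, and a gene without a region is not shown to be equal between genotypes. No paired analysis was possible because each group had 1 library.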
